A study of Mus musculus with 18 samples.

Results

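The transcriptional response of cranial NC cells to FGF2 was compared between day 2.5 (d2.5) and day 5 (d5) of osteoblast differentiation. At d2.5 FGF2 raised genes of the cell cycle, ribosome biogenesis and amino acid supply, most of which it lowered at d5, whereas most contractile genes and several cartilage genes went from lower to higher. The comparison used 12 of the 18 libraries of the series: Ctrl+vehicle and Ctrl+FGF2 cells at d2.5 and at d5, with 3 replicates in each of the 4 groups. All 12 came from O9-1, a single mouse line of cranial NC cells that is labelled wildtype, and all were transfected with a scramble siRNA (siCtrl) and kept in osteoblast differentiation medium. Ctrl+FGF2 cells received FGF2 and Ctrl+vehicle cells received the vehicle. The methods of the study give PBS with BSA as the FGF2 vehicle for pups and human cells, and name none for O9-1 cells. The other 6 libraries carried siRNAs against Yap and Taz (Y/T dKD+FGF2) and entered only an alternative fit. Whether FGF2 was renewed up to d5 is not given in the sources used here.

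FGF2 binds FGF receptors at the cell surface and activates the Ras-ERK kinase cascade, which induces transcription factors of the Egr, Fos and Ets families and, as feedback, the Sprouty, Spred and Dusp inhibitors of the same cascade. In skeletal precursors FGF signaling is known for driving proliferation and for holding back or promoting osteoblast maturation according to stage. Cranial NC cells give rise to most of the facial skeleton, through osteoblasts that lay down a type I collagen matrix and through chondrocytes that make type II collagen and aggrecan.

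The quantity followed throughout is a difference of differences. For each gene the log2 fold change of Ctrl+FGF2 over Ctrl+vehicle was taken at d2.5 and at d5, and the d2.5 value was subtracted from the d5 value, so that a positive difference marks a response that was more positive at d5. Errors of log2 values are standard errors (SE) of the fit, and errors of levels are standard deviations (SD, n = 3). Levels (CPM) are counts divided by library size after scaling for composition, which allow 1 gene to be compared between libraries but not different genes with each other. The labels give each day as its own batch, so the day and the batch cannot be told apart. A shift shared by all libraries of a day cancels in the difference. No label says that the replicates are separate cultures, and p-values therefore measure only the spread between these libraries. In these bulk libraries fewer cells of a type and less RNA per cell cannot be told apart.

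The 12 libraries held between 11026929 and 14698525 counts on genes (median 12811120), and no library stood apart from its group on the principal components, the first of which carried 73.1% of the variance and the second 12.8%. Of 10 NC markers 6 were expressed highly enough to be tested, while Sox10, Foxd3 and Zic1 had 0 counts in all 12 libraries, so the cells lacked defining markers of early NC under these conditions. All 6 osteoblast markers and all 3 cartilage markers were tested. Among markers of other cell types, Tyrobp (myeloid), Cdh5 (endothelial) and Elavl3 and Dcx (neuronal) were at 0 counts throughout, and the summed group means of the 4 blood markers stayed between 0.259 and 1.29 CPM.

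Of 14008 genes tested, 8470 (60.5%) had an FGF2 response that differed between the days at an adjusted p under 0.05 (edgeR). The difference was positive for 4383 genes (31.3%) and negative for 4087 genes (29.2%), and it was at least 1 on the log2 scale in size for 2691. At d2.5 FGF2 raised 4680 genes (33.4%) and lowered 4501 genes (32.1%). At d5 it raised 3139 genes (22.4%) and lowered 3258 genes (23.3%). With so many calls, being called says little about any single gene, and the size and the class of the difference are given beside each call. Counts of called members of a list likewise need to be read against these shares of all genes tested.

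Reversal was common among the genes that responded on both days. Of 4812 genes called at d2.5 and at d5, 3048 (63.3%) had opposite signs. These comprised 1606 genes that were higher with FGF2 at d2.5 and lower at d5 and 1442 genes that were lower and then higher. The Ctrl+FGF2 and Ctrl+vehicle libraries did not overlap on either day for 1511 of the former and 1335 of the latter. Being called on both days nearly entails this separation, which also held for 418 of 443 genes with a smaller fall at d5. It held for 1130 of the 5538 genes not called for the difference. Responses called at d2.5 but not at d5 are described as lost, which covers 1619 rises and 1642 falls, although a gene that is not called may still respond. Responses called only at d5 appeared as 640 rises and 427 falls. The remaining called genes kept their sign, with 255 smaller rises, 443 smaller falls, 89 larger rises and 89 larger falls at d5, and 218 genes were called for the difference but on neither day. Across all genes tested the log2 fold changes of the 2 days had a Pearson r of 0.034 and a Spearman coefficient of -0.136, given as a description across genes, which are not independent replicates.

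**Figure D1:**
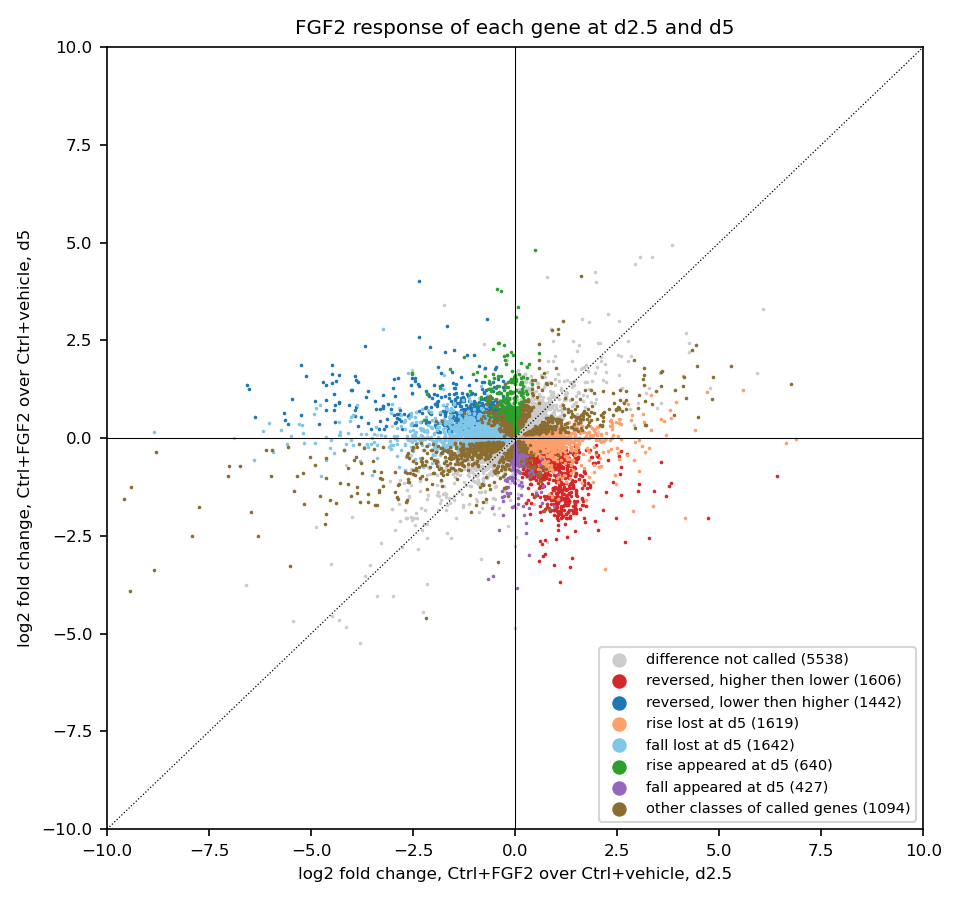
Log2 fold change of Ctrl+FGF2 over Ctrl+vehicle at d2.5 (horizontal axis) and at d5 (vertical axis) for the 14008 genes tested, coloured by class of the difference. The 1606 genes that were higher and then lower lie in the lower right and the 1442 that were lower and then higher lie in the upper left.

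The group levels are given as a description, since the definition of each class already keeps some groups from having the highest mean. Among genes that were higher and then lower, 1343 (83.6%) had their highest mean in the Ctrl+FGF2 libraries at d2.5. From d2.5 to d5 the level of the median gene of this class changed by -0.07 on the log2 scale in vehicle and by -0.98 in FGF2. Among genes that were lower and then higher, 1097 (76.1%) had their highest mean in Ctrl+FGF2 at d5, and the corresponding medians were -0.02 in vehicle and 0.91 in FGF2. Lost rises had their highest mean in Ctrl+FGF2 at d2.5 for 1425 genes (88.0%), and 468 of the 640 appeared rises (73.1%) in Ctrl+FGF2 at d5. Of 427 appeared falls, which by definition cannot be highest in Ctrl+FGF2 at d5, 270 (63.2%) were highest in Ctrl+vehicle at d5. Levels on different days also differ by batch and are not tested against each other.

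Cell cycle genes reversed almost without exception. All 54 listed genes of G2 and mitosis were tested. FGF2 raised all 54 at d2.5 and lowered 51 at d5, and the difference was negative for all 54, against 29.2% of all genes tested. Their median log2 fold change went from 1.02 to -1.53, whereas the median over all genes tested was 0.01 on each day. Of 43 listed S phase genes 42 had a negative difference, 42 were higher with FGF2 at d2.5 and 38 were lower at d5, with medians of 1.15 and -0.85. The summed level of the G2 and mitosis genes was 4078 ± 217 with vehicle and 7990.0 ± 40.3 with FGF2 at d2.5, and it was 2604 ± 414 with vehicle and 1549.7 ± 162 with FGF2 at d5 (CPM). That of the S phase genes was 1563 ± 121 with vehicle and 3297 ± 36 with FGF2 at d2.5, and 1271 ± 139.7 with vehicle and 830.1 ± 95.1 with FGF2 at d5 (CPM). In both lists the 4 groups kept the same order, with Ctrl+FGF2 at d2.5 highest and Ctrl+FGF2 at d5 lowest.

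Mki67, which encodes the proliferation antigen Ki-67, stood at 185, 198 and 189 CPM with vehicle and 382, 379 and 391 CPM with FGF2 at d2.5. The same gene stood at 108, 62.9 and 86.7 CPM with vehicle and 35.6, 14.1 and 25 CPM with FGF2 at d5. The groups did not overlap on either day, and the log2 fold change went from 1.01 ± 0.13 to -1.79 ± 0.20 (difference -2.80 ± 0.24, adjusted p = 1.24e-09). Ect2 (mm10 chr3:27097222-27153878), the exchange factor that starts cytokinesis, went from 45.5 ± 2.91 to 150.1 ± 5.09 CPM at d2.5 and from 38 ± 9.07 to 11.3 ± 3.96 CPM at d5, each time from vehicle to FGF2. Its difference of -3.47 ± 0.21 (adjusted p = 5.68e-12) was among the largest of the mitotic genes, with those of the kinases Nek2 (-3.33) and Bub1 (-3.30) and the mitotic ubiquitin-conjugating enzyme Ube2c (-3.17). In S phase the largest was that of E2f8, a repressive E2F factor that is itself induced at the G1/S transition. E2f8 stood at 7.42, 7.86 and 6.3 CPM with vehicle and 44.5, 44.2 and 42.6 CPM with FGF2 at d2.5, and at 7.62, 5.91 and 6.22 CPM with vehicle and 3.38, 1.38 and 2.51 CPM with FGF2 at d5. All 3 FGF2 libraries were above vehicle at d2.5 and all 3 below it at d5 (difference -4.05 ± 0.25, adjusted p = 4.71e-12). The cohesion gene Dscc1 (-3.35) differed in the same direction.

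**Figure D2:**
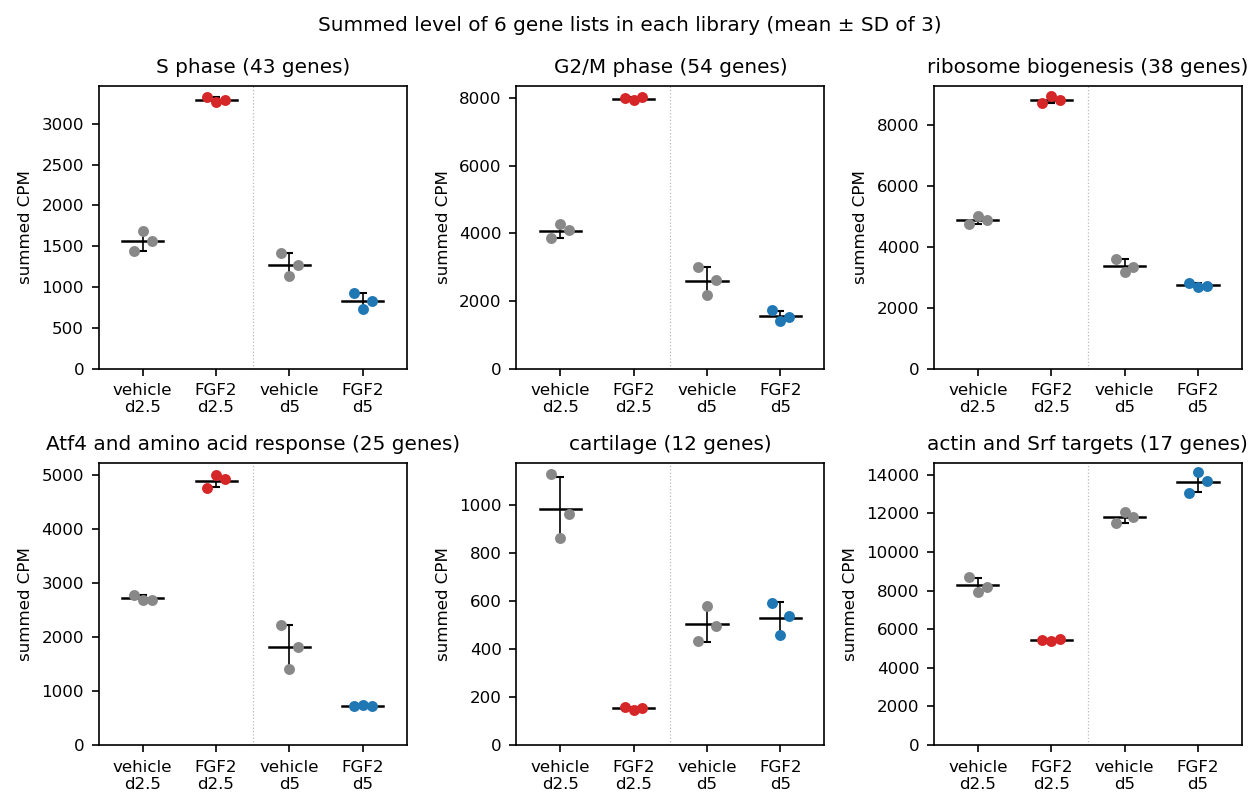
Summed CPM of gene lists in each of the 12 libraries, by day and treatment, with points for libraries, horizontal bars for group means and error bars for the SD. For the S phase and the G2 and mitosis lists the 3 Ctrl+FGF2 libraries lie above the 3 Ctrl+vehicle libraries at d2.5 and below them at d5.

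Regulators of G1 were less uniform. Of 20 listed cyclins, CDKs and inhibitors 18 were tested, and the difference was negative for 13 and positive for 5. The called share was 100%, against 60.5% of all genes tested. Ccnd1, the D-type cyclin that couples growth factor signals to cell cycle entry, stood at 112, 116 and 118 CPM with vehicle and 930.0, 937 and 945 CPM with FGF2 at d2.5, and at 198, 182 and 186 CPM with vehicle and 215, 151 and 179 CPM with FGF2 at d5. The groups were far apart at d2.5 and overlapped at d5 (log2 fold change -0.06 ± 0.08), so the rise was lost without a called fall (difference -3.08 ± 0.11, adjusted p = 1.92e-15). E2f2, an activating E2F, changed from 3.05 to -1.18 and the G1 kinase Cdk6 from 1.54 to -0.49 on the log2 scale. The CDK inhibitors moved the other way in part. Cdkn1c, which encodes p57, stood at 6.8, 5.86 and 4.84 CPM with vehicle and 3.63, 4.25 and 3.48 CPM with FGF2 at d2.5 and at 16.4, 15.9 and 16 CPM with vehicle and 48.2, 40.9 and 39.6 CPM with FGF2 at d5. FGF2 libraries were the lower ones at d2.5 and the higher ones at d5, without overlap (difference 2.05 ± 0.19, adjusted p = 4.26e-09). Cdkn1b (p27) also changed sign, from -0.39 to 0.21, whereas Cdkn1a (p21) was lower with FGF2 on both days, at -0.19 and -0.40.

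The promoters of the reversing cell cycle genes are shown because they carry the sequence elements by which such genes are usually recognized. Genes of G2 and mitosis are known to carry a cell cycle genes homology region (CHR), searched here as TTTGAA or TTCGAA, and a CCAAT box (CCAAT), whereas genes of S phase carry E2F sites (TTTCCCGC, TTTGGCGC, TTTCGCGC or TTTGCCGC). Both strands were searched in promoters from RefSeq (GRCm38.p6), each covering 250 bases before and 50 after a start site, on 32851 promoters in all. The 150 bases before the start are printed for the 3 mitotic genes with the largest difference among those holding both elements there, Ect2 at chr3:27153879-27154028 (- strand), Top2a, the DNA topoisomerase of chromosome condensation, at chr11:99024190-99024339 (- strand), and Kif11, the kinesin of spindle pole separation, at chr19:37376232-37376381 (+ strand). Capitals mark CHR and CCAAT matches on either strand.
Ect2: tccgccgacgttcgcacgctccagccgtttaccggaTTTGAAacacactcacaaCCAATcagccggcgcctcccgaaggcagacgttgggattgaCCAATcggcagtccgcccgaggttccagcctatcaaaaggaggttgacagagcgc
Top2a: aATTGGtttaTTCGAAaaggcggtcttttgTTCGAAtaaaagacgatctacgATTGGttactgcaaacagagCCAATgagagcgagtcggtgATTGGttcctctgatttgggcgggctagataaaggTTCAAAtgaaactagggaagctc
Kif11: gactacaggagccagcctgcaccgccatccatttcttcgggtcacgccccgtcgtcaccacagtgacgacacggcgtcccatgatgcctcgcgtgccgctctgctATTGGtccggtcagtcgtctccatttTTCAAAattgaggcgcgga
For S phase the 2 genes with the largest difference among those holding an E2F match in the 150 bases are printed, with the same exclusions. They are Mcm5, a subunit of the replicative helicase, at chr8:75109359-75109508 (+ strand), and Dtl, the substrate receptor for degradation of the licensing factor Cdt1, at chr1:191575545-191575694 (- strand). Capitals mark the E2F match alone.
Mcm5: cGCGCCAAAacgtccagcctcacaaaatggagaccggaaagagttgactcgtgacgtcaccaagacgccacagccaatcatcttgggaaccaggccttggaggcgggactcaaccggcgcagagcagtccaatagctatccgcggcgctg
Dtl: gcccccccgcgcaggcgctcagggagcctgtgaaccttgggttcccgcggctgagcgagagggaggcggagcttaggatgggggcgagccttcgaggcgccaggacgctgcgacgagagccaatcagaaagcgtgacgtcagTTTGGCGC
The 5 genes printed have called differences of -3.47 (Ect2), -3.02 (Top2a), -2.96 (Kif11), -2.44 (Mcm5) and -2.30 (Dtl).

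The CHR and the E2F sites followed the 2 lists, and the CCAAT box did so less. A CHR was found in 73.1% of the 52 promoters of the G2 and mitosis list, which matched 47 of its 54 genes, in 17.6% of the 34 S phase promoters and in 19.2% of all promoters. CCAAT boxes were in 75.0%, 67.6% and 37.4% respectively, and in the other lists searched their share ranged from 22.2% (ribosome biogenesis) to 58.8% (actin and Srf targets). Both elements together were in 59.6% of the G2 and mitosis promoters and in 7.52% of all promoters. E2F sites were in 35.3% of S phase promoters, 5.77% of G2 and mitosis promoters and 2.26% of all. Over all genes that were higher and then lower, CHR matches were in 319 of 1594 promoters and E2F matches in 7.59%, against 13.8% and 3.92% over the genes tested, so most of this class held neither element in these windows. A match is a description of the sequence and not of binding.

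Genes that report on FGF-ERK signaling responded strongly at d2.5, and in large part the response did not persist. Of 22 listed genes 21 were tested, 19 rose at d2.5, 12 rose at d5, and the difference was negative for 19. Over all genes tested it was negative for 29.2%. The median log2 fold change went from 1.55 to 0.26, and the summed level was 434 ± 5.72 with vehicle and 1584 ± 10.9 with FGF2 at d2.5 and 570.1 ± 37.1 with vehicle and 636 ± 7.18 with FGF2 at d5 (CPM). By class, 11 members were smaller rises, 6 were lost rises and 2 (Myc and Phlda1) reversed to a fall.

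Dusp6 (mm10 chr10:99263231-99267489), the phosphatase that inactivates ERK, stood at 14.6, 14.6 and 15.1 CPM with vehicle and 126, 129 and 128 CPM with FGF2 at d2.5, and at 26.1, 36.3 and 29.4 CPM with vehicle and 29.1, 25.7 and 26.1 CPM with FGF2 at d5. FGF2 libraries were far above vehicle at d2.5 and overlapped them at d5 (difference -3.31 ± 0.12, adjusted p = 3.94e-15). Dusp4, a nuclear phosphatase of the same family, had a log2 fold change of 3.28 ± 0.13 at d2.5 and -0.27 ± 0.22 at d5. Etv5, an Ets factor downstream of FGF receptors, kept a rise without overlap on both days, at 11.7, 10.2 and 9.53 CPM with vehicle and 152, 155 and 159 CPM with FGF2 at d2.5 and at 10.7, 11.6 and 11.4 CPM with vehicle and 17, 16.3 and 17.5 CPM with FGF2 at d5 (difference -3.30 ± 0.12, adjusted p = 2.02e-15). Egr3, an immediate early transcription factor, behaved likewise, with log2 fold changes of 4.82 ± 0.27 and 0.99 ± 0.17. Among the feedback inhibitors Spry4 went from 3.19 to 0.33, Spry2 from 1.85 to 0.45 and Spred1 from 1.55 to 0.18, each still called as a rise at d5.

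The AP-1 subunit Fosl1 went from 16.4 ± 1.45 to 92.2 ± 4.99 CPM at d2.5 (vehicle to FGF2) and from 5.57 ± 0.0421 to 4.74 ± 1.36 CPM at d5, a rise that was lost (difference -2.74 ± 0.20, adjusted p = 2.28e-10). Myc, a driver of growth and ribosome production, rose by 1.37 ± 0.07 at d2.5 and had a log2 fold change of -0.81 ± 0.10 at d5 (difference -2.19 ± 0.12, adjusted p = 3.51e-12). Il17rd, a membrane antagonist of FGF receptors, was the only tested member with a positive difference, from -0.46 to 0.41, and Egr2 was not called for the difference. AP-1 sites (TGANTCA) were in none of the 19 ERK list promoters searched and in 7.81% of all promoters.

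The receptors Fgfr2 and Fgfr3 fell with FGF2 at d2.5, and neither fell at d5. Of 20 listed FGF ligands, receptors and adaptors 11 were tested, and 7 had a positive and 3 a negative difference. The called share was 90.9%, against 60.5% of all genes tested. Fgfr2 (mm10 chr7:130162451-133123350), a receptor central to cranial bone formation, stood at 307, 284 and 287 CPM with vehicle and 31.4, 27.8 and 29.5 CPM with FGF2 at d2.5, and at 524, 543 and 522 CPM with vehicle and 764, 693 and 709 CPM with FGF2 at d5. The groups did not overlap on either day, with FGF2 below vehicle at d2.5 and above it at d5 (log2 fold change -3.31 ± 0.05 and 0.45 ± 0.04, difference 3.75 ± 0.07, adjusted p = 7.62e-20). Fgfr3, the receptor that restrains cartilage growth, stood at 26.5, 30.1 and 28.5 CPM with vehicle and 1.21, 0.952 and 0.67 CPM with FGF2 at d2.5 and at 21.6, 25.6 and 22.9 CPM with vehicle and 27.3, 17.6 and 20.4 CPM with FGF2 at d5. Its fall at d2.5 was lost, with overlapping libraries at d5 (difference 4.79 ± 0.33, adjusted p = 1.01e-12).

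Fgfr1, the main mesenchymal receptor, showed the opposite course to Fgfr2. From vehicle to FGF2 it went from 150.3 ± 12.6 to 247 ± 4.46 CPM at d2.5 and from 551 ± 23.4 to 459.8 ± 25.2 CPM at d5, a rise and then a fall (difference -0.98 ± 0.07, adjusted p = 2.13e-10). The decoy-like receptor Fgfrl1 was lower and then higher (-0.99 and 0.84). Among ligands, Fgf10 and Fgf7, which signal from mesenchyme to epithelium, were smaller rises at d5 (1.48 to 0.54 and 1.10 to 0.41). Endogenous Fgf2 had small fold changes (-0.33 and 0.16). Fgf18, a ligand of skeletal growth, had 10 counts over the vehicle libraries and 0 over the FGF2 libraries at d2.5. With the FGF2 group set to a floor of 3 counts, its level was 3.30-fold lower. The 95% counting interval of the vehicle over FGF2 ratio reached down to 2.22. The Fgf18 call for the difference was lost without Ctrl+vehicle replicate 1 at d2.5 (adjusted p = 0.0758).

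**Figure D3:**
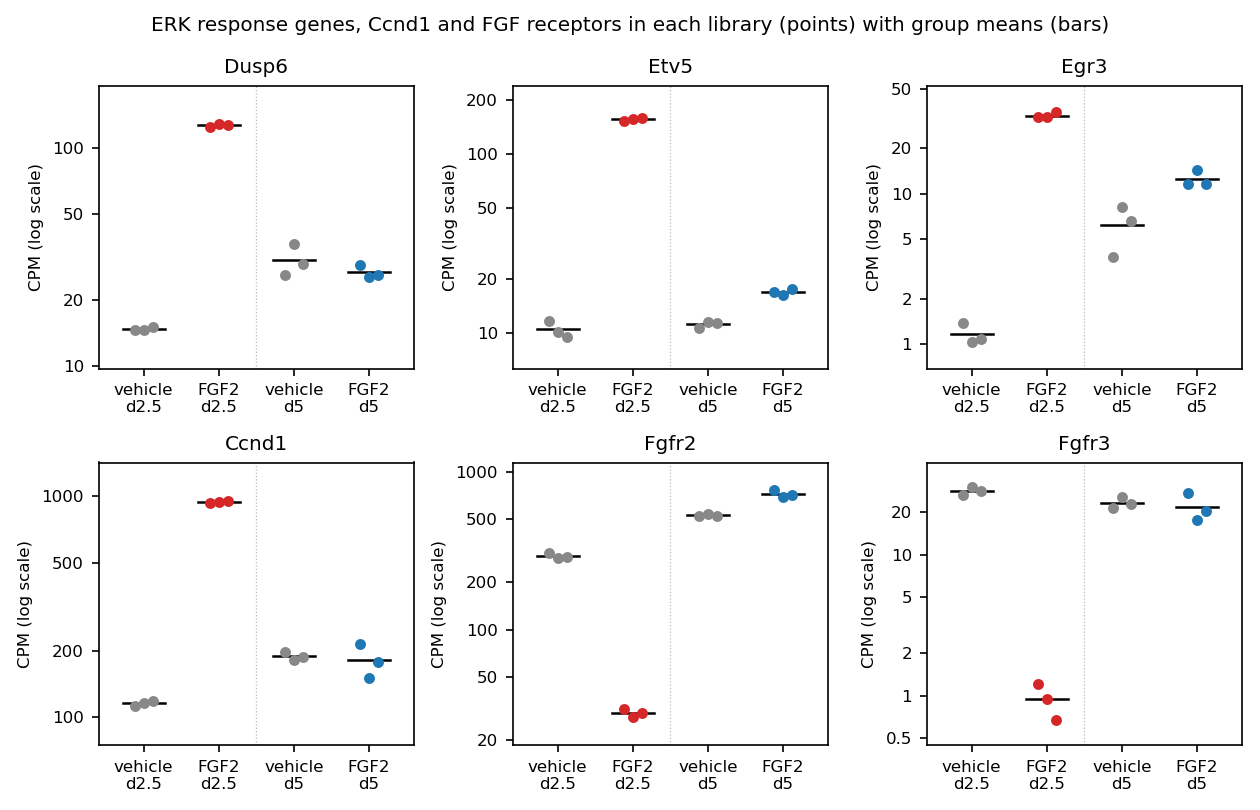
Levels (CPM, log axis) of FGF pathway genes in each of the 12 libraries, by day and treatment. The Ctrl+FGF2 libraries lie below vehicle at d2.5 and above it at d5 for Fgfr2, and far above vehicle at d2.5 but among the vehicle libraries at d5 for Dusp6.

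Ribosome biogenesis genes reversed in the same direction as the cell cycle genes. All 38 listed genes were tested, 37 were higher at d2.5 and 32 were lower at d5, with medians of 0.92 and -0.35. The difference was negative for 37, against 29.2% of all genes tested. Nop56, a core protein of small nucleolar ribonucleoproteins that guide rRNA methylation, stood at 88.5, 96.5 and 91.4 CPM with vehicle and 215, 229.7 and 230.1 CPM with FGF2 at d2.5 and at 90.7, 73.2 and 76.7 CPM with vehicle and 42.3, 42.6 and 44.9 CPM with FGF2 at d5. The libraries did not overlap on either day (difference -2.17 ± 0.09, adjusted p = 1.87e-14). The nucleolar GTPase Gnl3 (-2.04), the pseudouridine synthase Dkc1 (-1.85) and the helicase Ddx21 (-1.85) followed. Rrp1 was the exception, not called at d2.5 and higher at d5 (-0.07 and 0.41).

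The genes of the Atf4 program, which supply amino acids and one-carbon units, also changed direction. Of 25 genes, all tested, 22 were higher at d2.5 and 22 were lower at d5, with medians of 0.74 and -1.48. The difference was negative for 23, against 29.2% of all genes tested. Their summed level was 2722 ± 56.5 with vehicle and 4901 ± 119 with FGF2 at d2.5, and 1817 ± 411 with vehicle and 727 ± 10.1 with FGF2 at d5 (CPM). Atf4 itself, the transcription factor of the program and also a factor of osteoblast maturation, went from 365 ± 11.9 to 606 ± 7.63 CPM at d2.5 and from 363 ± 78.3 to 123 ± 4.36 CPM at d5 (vehicle to FGF2, difference -2.29 ± 0.13, adjusted p = 3.30e-12).

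Trib3 (mm10 chr2:152337422-152344032), a pseudokinase induced by Atf4, stood at 59.1, 51 and 56 CPM with vehicle and 114, 126 and 115 CPM with FGF2 at d2.5 and at 68.7, 33.9 and 50.2 CPM with vehicle and 1.65, 5.85 and 3.94 CPM with FGF2 at d5. Every FGF2 library was above vehicle at d2.5 and every one was below it at d5 (difference -4.79 ± 0.36, adjusted p = 1.50e-11). Mthfd2, the mitochondrial enzyme of the folate cycle, stood at 123, 121 and 112 CPM with vehicle and 225, 234 and 231 CPM with FGF2 at d2.5 and at 126, 65.2 and 90.6 CPM with vehicle and 8.6, 10.4 and 10.4 CPM with FGF2 at d5, with the same separation (difference -4.20 ± 0.24, adjusted p = 1.10e-12). The leucine transporter Slc7a5 went from 1.27 to -2.52, the asparagine synthetase Asns from 0.73 to -2.60, the serine synthesis enzyme Psat1 from 1.5 to -1.92 and the secreted glycoprotein Stc2 from 2.46 to -2.04 on the log2 scale. Ddit4, an mTORC1 inhibitor, lost its rise without a fall (1.56 and 0.01). Atf5 differed from the rest at d2.5, where it was not called, and fell at d5 (-0.03 ± 0.09 and -1.75 ± 0.11). In a search added after these values were seen, the Atf4 composite element TGATGNAA was in 25% of the 28 promoters of the list and in 3.97% of all promoters.

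Glycolytic and hypoxia-inducible genes rose at d2.5 for 22 of 24 members. The difference was negative for 21, against 29.2% of all genes tested. At d5 they were divided, with 6 higher and 9 lower, and the median moved from 0.80 to -0.07. The members that reversed included the hypoxia-inducible Ankrd37 (1.59 to -1.82), the oxidoreductase Ero1a (1.91 to -0.64), Ndrg1 (1.10 to -1.29) and hexokinase Hk2 (1.28 to -0.46). The fall of Ankrd37 at d5 rests on 18 counts over vehicle and 5 over FGF2 libraries. The glucose transporter Slc2a1 kept a smaller rise (1.29 and 0.66).

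For 14 of 25 sterol synthesis genes the fall with FGF2 was larger at d5 or called on that day alone. Of 25 genes, 16 were lower with FGF2 at d2.5 and 19 at d5, and 14 had a negative difference, of which 6 appeared as falls at d5 and 8 were larger falls. In either direction 64% were called for the difference, near the 60.5% of all genes tested, while negative differences made up 29.2% of all genes. Sqle, the epoxidase of cholesterol synthesis, stood at 390.2, 366 and 379 CPM with vehicle and 383, 373 and 379.8 CPM with FGF2 at d2.5, and at 225, 173 and 195 CPM with vehicle and 101, 84.5 and 83.8 CPM with FGF2 at d5. Libraries overlapped at d2.5 and did not at d5 (difference -1.14 ± 0.10, adjusted p = 2.42e-09). The demethylase Cyp51 went from -0.18 ± 0.05 to -1.47 ± 0.06, the oxidase Msmo1 from 0.14 to -1.14 and the prenyl synthase Fdps from -0.27 to -1.49. Dhcr7, which makes the last step to cholesterol, had nearly equal falls (-0.66 and -0.65) and was not called for the difference.

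The osteoblast transcription factors did not move as a unit. Of 12 listed 11 were tested, 7 were lower at d2.5, and 5 had a positive and 2 a negative difference. Their share of called differences (63.6%) was near that of all genes tested (60.5%). Runx2 (mm10 chr17:44495987-44814797), the master factor of osteoblast commitment, stood at 164, 164 and 162 CPM with vehicle and 96.7, 90.3 and 91 CPM with FGF2 at d2.5 and at 126, 148 and 133 CPM with vehicle and 186, 178 and 172 CPM with FGF2 at d5. FGF2 libraries were all lower at d2.5 and all higher at d5 (log2 fold change -0.82 ± 0.05 and 0.39 ± 0.05, difference 1.21 ± 0.07, adjusted p = 6.88e-12). Sp7 (Osterix), which acts after Runx2, stood at 139, 221 and 184 CPM with vehicle and 27.5, 25.2 and 26.1 CPM with FGF2 at d2.5 and at 33.3, 38.7 and 34.3 CPM with vehicle and 52.4, 37.4 and 43.2 CPM with FGF2 at d5. Its fall at d2.5 was lost at d5, where the libraries overlapped (difference 3.10 ± 0.20, adjusted p = 3.09e-11), and its vehicle level was also lower on that day. The homeobox factors Dlx5 (-4.09 ± 0.66 and -1.17 ± 0.26) and Msx2 (-2.64 ± 0.29 and -1.05 ± 0.25) kept smaller falls. Twist1, an inhibitor of Runx2, was not called at d2.5 and was lower at d5 (0.01 and -0.42), and Msx1, Cbfb, Twist2 and Dlx3 were not called for the difference.

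Matrix and mineralization genes divided into those whose fall shrank and those whose rise shrank. Of 25 listed 23 were tested, with 14 lower at d2.5 and 14 lower at d5. The difference was positive for 12, of which 9 were smaller falls, and negative for 8, of which 5 were smaller rises. The called share was 87.0%, against 60.5% of all genes tested. Alpl (mm10 chr4:137741733-137796384), the alkaline phosphatase of mineralizing osteoblasts, stood at 102, 127 and 115 CPM with vehicle and 0.142, 0.147 and 0.134 CPM with FGF2 at d2.5, which is 4957 counts over the vehicle libraries and 6 over the FGF2 libraries. At the later day it stood at 168, 151 and 163 CPM with vehicle and 66.6, 46.1 and 50.4 CPM with FGF2 at d5. The libraries did not overlap on either day, and the log2 fold change went from -9.58 ± 0.94 to -1.57 ± 0.09 (difference 8.01 ± 0.94, adjusted p = 3.12e-14). Mmp13, the collagenase of bone remodeling, stood at 64.8, 44.6 and 52.6 CPM with vehicle and 0.355, 0.366 and 0.469 CPM with FGF2 at d2.5 and at 907, 1262 and 1074 CPM with vehicle and 573, 531 and 558 CPM with FGF2 at d5. FGF2 remained below vehicle in every library, by less at d5 (difference 6.08 ± 0.67, adjusted p = 3.20e-12). The parathyroid hormone receptor Pth1r likewise went from -5.34 ± 0.30 to -0.98 ± 0.09.

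Col1a1, the main chain of type I collagen, stood at 12725, 12511 and 12517 CPM with vehicle and 2282, 2158 and 2209 CPM with FGF2 at d2.5 and at 32628, 30177 and 32087 CPM with vehicle and 15430.0, 17298 and 17047 CPM with FGF2 at d5. Its levels were higher on the later day in both treatments, and the fall with FGF2 was smaller there (-2.51 ± 0.04 and -0.93 ± 0.04, difference 1.57 ± 0.06, adjusted p = 2.89e-15). Dmp1, a phosphoprotein of osteocytes, was opposite, at 11, 12.5 and 11.9 CPM with vehicle and 471, 446 and 456 CPM with FGF2 at d2.5 and at 1.81, 2.14 and 1.15 CPM with vehicle and 6.77, 6.02 and 5.82 CPM with FGF2 at d5. FGF2 libraries were above vehicle on both days, with a smaller log2 rise at d5 (difference -3.42 ± 0.23, adjusted p = 1.77e-10). Enpp1, which makes the mineralization inhibitor pyrophosphate, also had a negative difference, going from 2.11 to -0.11. So did the phosphate transporter Slc20a1 (0.93 to -0.72) and the pyrophosphate exporter Ankh (1.67 to 0.70). The difference of Alpl had the opposite sign (8.01).

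Bglap and Ibsp were lower with FGF2 on both days. Bglap (osteocalcin) had 30 counts over the vehicle and 4 over the FGF2 libraries at d2.5, and 89 and 13 at d5. Its log2 fold changes were -2.77 ± 0.80 and -2.79 ± 0.45, and the difference was not called (-0.02 ± 0.92, adjusted p = 0.953). For Ibsp, the bone sialoprotein, they were -2.31 ± 0.15 and -1.80 ± 0.17, with a difference of 0.51 ± 0.22 (adjusted p = 0.0542) that also missed the threshold. The Ibsp difference was called without Ctrl+FGF2 replicate 2 (0.75, adjusted p = 0.00255) or Ctrl+vehicle replicate 2 (0.71, adjusted p = 0.00313) at d5, and in 4 other settings. At these counts a smaller difference of the Bglap response was not detectable.

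**Figure D4:**
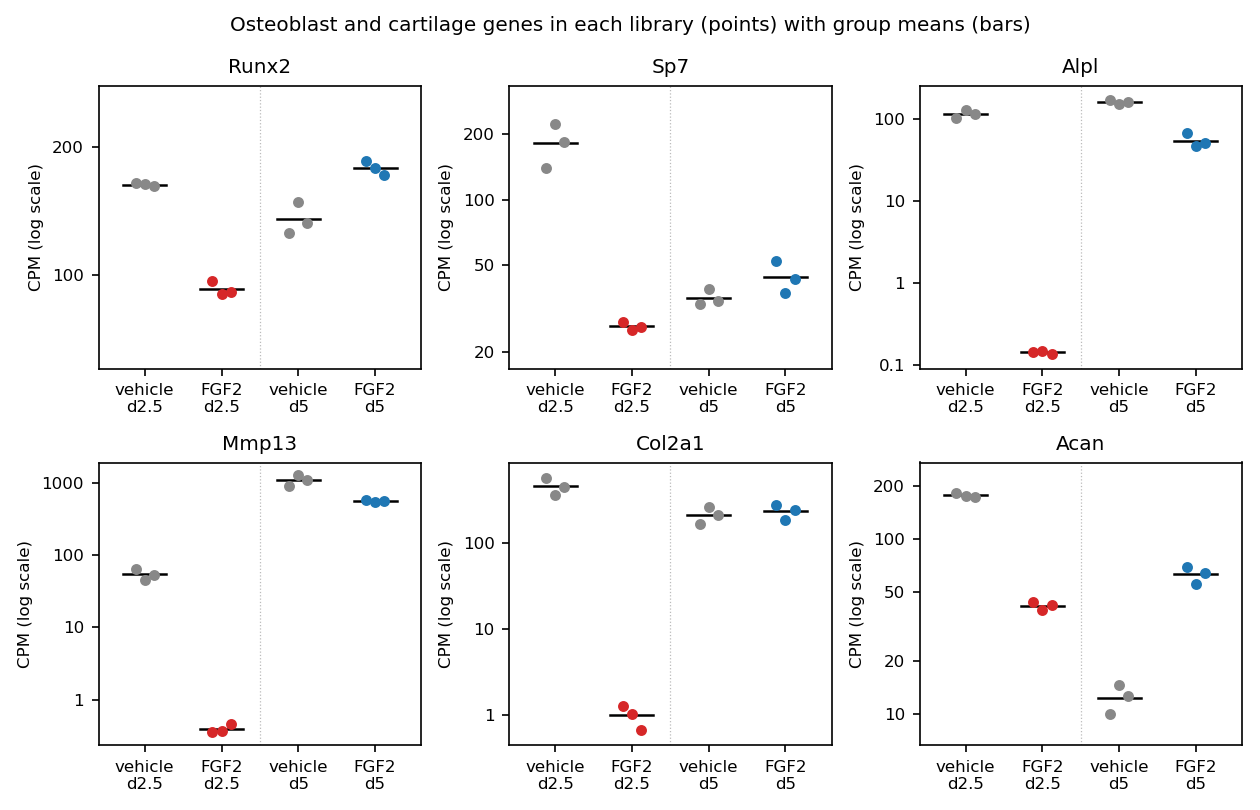
Levels (CPM, log axis) of osteoblast and cartilage genes in each of the 12 libraries, by day and treatment. Alpl and Col2a1 are near the bottom of the scale with FGF2 at d2.5 only, and Runx2 and Acan lie below vehicle at d2.5 and above it at d5.

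Cartilage genes included the largest single difference among the listed genes, that of Col2a1. Of 17 listed 12 were tested, 11 were lower with FGF2 at d2.5, and at d5 5 were higher and 5 lower. Called differences were positive for 9 and negative for 0 (75% called, against 60.5% of all genes tested). The list median went from -3.13 to -0.72, and its summed level was 982 ± 134 with vehicle and 152 ± 5.86 with FGF2 at d2.5 and 503 ± 73.2 with vehicle and 528 ± 66.2 with FGF2 at d5 (CPM). Col2a1 (mm10 chr15:97975602-98004695), the type II collagen of cartilage, stood at 573, 362 and 441 CPM with vehicle and 1.28, 1.03 and 0.67 CPM with FGF2 at d2.5 and at 164, 260.4 and 209 CPM with vehicle and 277, 185 and 243 CPM with FGF2 at d5. The d2.5 groups were separated by a log2 fold change of -8.85 ± 0.68, and the d5 groups overlapped (0.15 ± 0.15, difference 9.0 ± 0.70, adjusted p = 1.78e-14). Acan, the aggrecan core protein, stood at 183, 177 and 175 CPM with vehicle and 43.7, 39 and 42.1 CPM with FGF2 at d2.5 and at 9.93, 14.5 and 12.6 CPM with vehicle and 69.3, 55.4 and 64 CPM with FGF2 at d5. Here the vehicle level was lower at d5 and FGF2 libraries were all above it (difference 4.42 ± 0.13, adjusted p = 3.78e-17).

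Sox9, the chondrogenic transcription factor, reversed with a smaller size, at 159.8, 162 and 168 CPM with vehicle and 85.2, 77.4 and 80.4 CPM with FGF2 at d2.5 and at 46.5, 42.6 and 44.5 CPM with vehicle and 82.7, 82.7 and 85.1 CPM with FGF2 at d5 (difference 1.92 ± 0.07, adjusted p = 1.95e-15). Libraries of the 2 treatments were apart on both days. Col9a2, a chain of type IX collagen, had 423 counts over the vehicle and 4 over the FGF2 libraries at d2.5 and was above vehicle in all FGF2 libraries at d5, at 18, 31.9 and 23.3 CPM with vehicle and 75, 53.5 and 60.2 CPM with FGF2 at d5 (difference 7.91 ± 1.53, adjusted p = 3.85e-10). Col10a1, the collagen of hypertrophic cartilage, went from -5.63 ± 0.26 to 0.46 ± 0.15. Hapln1 (-3.39 and -1.72) and Col11a2 (-5.52 and -3.26) kept falls on both days, so the list did not return to vehicle as a whole.

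Among 21 tested collagens outside these lists, 16 were lower at d2.5 and 15 at d5. The difference was positive for 13, 9 of them as smaller falls, and negative for 6. Of these collagens 90.5% were called for the difference, against 60.5% of all genes tested. The fibrillar Col27a1 (-3.82 ± 0.22 and -0.15 ± 0.06) and the fibril-associated Col12a1 (-3.25 ± 0.06 and -0.22 ± 0.06) lost most of their fall, and Col8a2, a short-chain collagen, reversed (-3.17 ± 0.09 and 0.30 ± 0.04). Col8a1 took the opposite course to Col8a2 (2.0 and -0.46). Col24a1 was near absent at d2.5, with 4 and 8 counts over the vehicle and FGF2 libraries, and stood at 24.8, 25.5 and 27 CPM with vehicle and 6.31, 8.62 and 8.15 CPM with FGF2 at d5, an appeared fall (difference -2.68 ± 0.89, adjusted p = 0.00823).

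Of 14 collagen-modifying enzymes 11 were lower at d2.5. The difference was positive for 8 and negative for 4 (85.7% called, against 60.5% of all genes tested). Lox, the lysyl oxidase that starts collagen crosslinks, went from 1202 ± 8.73 to 470.0 ± 21 CPM at d2.5 and from 3590.2 ± 19.3 to 3583 ± 205 CPM at d5 (vehicle to FGF2, difference 1.35 ± 0.05, adjusted p = 2.20e-14), a fall that was lost. The prolyl hydroxylases P4ha3 (-1.21 and 0.38) and P3h1 (-1.52 and -0.42) also had positive differences. Plod2 (-0.29 and -0.97) and P4ha2 (-0.53 and -1.13) fell further at d5, and Loxl3 kept a smaller rise (1.57 and 0.54).

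Targets and inhibitors of BMP signaling, which promotes bone and cartilage formation, fell at d2.5 in 9 of 14 tested genes. The difference was positive for 9 and negative for 2 (78.6% called, against 60.5% of all genes tested). Smad6, an inhibitory Smad induced by BMP, stood at 32.2, 51.4 and 43 CPM with vehicle and 6.68, 6.89 and 7.24 CPM with FGF2 at d2.5 and at 13.7, 15.4 and 14.8 CPM with vehicle and 23.2, 20.2 and 23.1 CPM with FGF2 at d5. All FGF2 libraries were below vehicle and then above it (difference 3.20 ± 0.21, adjusted p = 2.57e-11). Id3, a direct BMP target, also reversed (-1.04 ± 0.08 and 0.72 ± 0.09). Id2 (-2.18 and -0.19), the receptor Smad Smad9 (-1.95 and -0.05) and the extracellular antagonist Chrd (-1.53 and 0.26) lost their fall. The ligand Bmp2 and the antagonist Grem1 had negative differences (-0.98 and -0.65).

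Notch pathway genes split, with 5 positive and 3 negative differences among 9 tested (88.9% called, against 60.5% of all genes tested). Hey1, a Notch effector repressor, stood at 85.1, 123 and 112 CPM with vehicle and 0.711, 0.952 and 0.804 CPM with FGF2 at d2.5 and at 20.6, 17.7 and 17.1 CPM with vehicle and 12.4, 11 and 10.3 CPM with FGF2 at d5. FGF2 was below vehicle in all libraries, by far more at d2.5 (difference 6.29 ± 0.41, adjusted p = 2.15e-13). Hes1, another effector of the same pathway that is also responsive to growth factors, was higher and then lower (1.48 ± 0.15 and -1.45 ± 0.19), and the ligand Dll1 lost its rise (1.35 and -0.22). Notch3 was lower and then higher (-0.92 and 0.59).

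In the Wnt pathway 10 of 17 tested genes were lower at d2.5 and 11 at d5, and 7 had a positive and 5 a negative difference. This is 70.6% called for the difference, not far from the 60.5% of all genes tested. Dkk2, a secreted Wnt modulator, stood at 1.31, 1.29 and 0.692 CPM with vehicle and 52.5, 53.6 and 55 CPM with FGF2 at d2.5, and at 0.100, 0.493 and 0.622 CPM with vehicle and 1.65, 0.325 and 1.07 CPM with FGF2 at d5. The rise at d2.5 was lost at d5, where only 14 counts over vehicle and 34 over FGF2 libraries were present (difference -4.36 ± 0.63, adjusted p = 4.29e-05). Wnt4 (-3.48 ± 0.17 and -0.60 ± 0.16) and the Wnt potentiator Rspo2 (-4.02 ± 0.80 and -1.48 ± 0.21) kept smaller falls, and the antagonist Sfrp1 reversed (-1.74 and 0.34). Axin2, the common readout of β-catenin activity, was lower on both days (-1.70 ± 0.36 and -1.43 ± 0.18) and its difference was not called (0.28 ± 0.40, adjusted p = 0.545).

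All 7 called differences among 9 tested IGF pathway genes were positive. The called share was 77.8%, against 60.5% of all genes tested. Irs1, the adaptor of insulin and IGF receptors, stood at 46, 49.2 and 44.3 CPM with vehicle and 8.82, 8.28 and 7.64 CPM with FGF2 at d2.5 and at 64.1, 71.4 and 69.1 CPM with vehicle and 69.8, 70.6 and 74.3 CPM with FGF2 at d5, with separate groups at d2.5 and overlapping groups at d5 (difference 2.57 ± 0.10, adjusted p = 6.48e-15). The imprinted RNA H19 (-3.46 ± 0.50 and -0.11 ± 0.23) also lost its fall, and the binding proteins Igfbp4 (-1.32 and 0.43) and Igfbp7 (-1.41 and 0.14) reversed.

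Genes known as Yap/Taz targets were balanced, with 8 positive and 8 negative differences among 22 tested (72.7% called, against 60.5% of all genes tested). Ccdc80, a secreted matrix protein, lost a fall (-2.60 ± 0.05 and -0.06 ± 0.04), and Ankrd1, a nuclear ankyrin protein, kept a smaller rise (1.58 ± 0.09 and 0.40 ± 0.09). Fjx1 appeared as a fall (-0.19 and -1.40), a call that was lost (adjusted p from 0.0527 to 0.147) without replicate 1 or 3 of Ctrl+vehicle or replicate 1 of Ctrl+FGF2 at d2.5, or without replicate 3 of Ctrl+vehicle or replicate 1 of Ctrl+FGF2 at d5. The Fjx1 call was also lost with upper-quartile factors (adjusted p = 0.0516), no filter on low counts (0.077) or DESeq2 (0.0773). Ccn2, the connective tissue growth factor, had a small difference (-0.29 ± 0.10, adjusted p = 0.0213) with overlapping libraries on both days. Its call was lost with upper-quartile factors (adjusted p = 0.114). It was also lost without the d5 libraries Ctrl+vehicle replicate 2 (0.0766), Ctrl+FGF2 replicate 1 (0.0596) or Ctrl+FGF2 replicate 3 (0.0569). Of the coactivators, Yap1 had log2 fold changes of -0.20 ± 0.04 and 0.07 ± 0.04 (difference 0.27 ± 0.06, adjusted p = 6.69e-04) and Wwtr1, which encodes Taz, of 0.68 ± 0.03 and -0.10 ± 0.03 (difference -0.78 ± 0.05, adjusted p = 2.23e-11), so the Yap1 fall at d2.5 was lost and the Wwtr1 rise turned into a fall.

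Contractile and cytoskeletal genes under the control of Srf reversed in the direction opposite to the cell cycle genes. Of 18 listed 17 were tested, 16 were lower with FGF2 at d2.5, 12 were higher at d5, and 16 had a positive difference, against 31.3% of all genes. Acta2 (mm10 chr19:34241090-34255590), smooth muscle actin, stood at 219, 157 and 183 CPM with vehicle and 20.5, 21.3 and 21.5 CPM with FGF2 at d2.5 and at 1948, 2026 and 1989 CPM with vehicle and 2586, 2974 and 2816 CPM with FGF2 at d5. FGF2 libraries were lowest of all at d2.5 and highest of all at d5 (difference 3.63 ± 0.12, adjusted p = 7.39e-16). Myl9, the regulatory myosin light chain, followed the same order, at 12.5, 7.8 and 10.3 CPM with vehicle and 0.782, 0.586 and 0.804 CPM with FGF2 at d2.5 and at 164, 158 and 152 CPM with vehicle and 244, 221 and 226 CPM with FGF2 at d5 (difference 4.33 ± 0.33, adjusted p = 1.84e-12). Lmod1 (-2.04 ± 0.42 and 1.03 ± 0.08), an actin nucleator, also reversed. Zyx, a focal adhesion protein, was the exception and kept a smaller rise (0.87 and 0.26). In a search added after these values were seen, a CArG box, the binding element of Srf, was in 35.3% of the 17 promoters of the list and in 1.63% of all promoters. It was not particular to this list, as 26.3% of the 19 ERK list promoters also held a CArG box, and most genes of that list rose at d2.5.

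Chemokines, cytokines and related receptors rose in 11 of 17 tested genes at d2.5. The difference was negative for 10 and positive for 4 (82.4% called, against 60.5% of all genes tested). Il1rl1, the IL-33 receptor, stood at 14.6, 11.3 and 13.8 CPM with vehicle and 173, 166 and 172 CPM with FGF2 at d2.5 and at 71.7, 119 and 97 CPM with vehicle and 24.1, 42.7 and 35.1 CPM with FGF2 at d5. The groups did not overlap and changed places between the days (difference -5.18 ± 0.23, adjusted p = 3.55e-14). Lif, a cytokine of the IL-6 family, was likewise higher and then lower (3.0 ± 0.23 and -1.36 ± 0.26). Cxcl12, a chemokine of the marrow niche, went the other way, at 31.5, 30.5 and 29.3 CPM with vehicle and 9.67, 8.2 and 9.65 CPM with FGF2 at d2.5 and at 81.1, 109.9 and 91.3 CPM with vehicle and 444, 438 and 423 CPM with FGF2 at d5, without overlap (difference 3.93 ± 0.14, adjusted p = 7.93e-16). Cxcl5, a neutrophil chemokine, lost a fall (-5.18 ± 0.66 and -0.12 ± 0.49).

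Complement genes had 6 positive and 0 negative differences among 7 tested (85.7% called, against 60.5% of all genes tested). Serping1, the C1 inhibitor, was lower and then higher (-2.85 ± 0.13 and 0.61 ± 0.08), C1s1 kept a smaller fall (-3.71 and -0.27), and C1ra lost its fall (-2.21 and -0.01). Interferon-stimulated genes were called for the difference in 12 of 23, near the share of all genes, with Gbp2 reversing (-1.49 ± 0.14 and 0.81 ± 0.16) and the chemokine Cxcl10 losing a rise (1.67 and -0.40).

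p53 target genes had 7 positive and 7 negative differences among 17 tested (82.4% called, against 60.5% of all genes tested). Sesn1, a sestrin that restrains mTORC1, went from 65.6 ± 2.27 to 26.1 ± 0.873 CPM at d2.5 and from 112 ± 3.36 to 199 ± 8.14 CPM at d5 (vehicle to FGF2, difference 2.15 ± 0.07, adjusted p = 4.80e-16), and Trp53inp1 also reversed upward (-1.44 and 0.23). The p53 inhibitor Mdm2 reversed downward (0.48 and -0.19). Perp and Fas lost their falls (differences of 1.54 and 1.42).

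Genes of ER protein folding changed little, with medians of -0.18 and -0.21 and 7 positive and 6 negative differences among 20. That share (65%) was near the 60.5% of all genes tested. The largest were those of Herpud1 (-0.92), Sec61b (0.66), Pdia6 (-0.58) and Hsp90b1 (-0.48).

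NC and stemness genes had 8 positive and 4 negative differences among 13 tested of 20 listed (92.3% called, against 60.5% of all genes tested). Klf4, a pluripotency factor, went from 33.2 ± 2.59 to 72.9 ± 3.66 CPM at d2.5 and from 56.4 ± 5.32 to 29.5 ± 2.44 CPM at d5 (vehicle to FGF2), a rise and then a fall (difference -2.07 ± 0.11, adjusted p = 6.70e-13). Snai1, a factor of epithelial to mesenchymal transition, reversed in the other direction (-1.58 ± 0.08 and 0.35 ± 0.09), the mesenchymal homeobox factor Prrx2 lost a fall (-1.08 and 0.16) and the nuclear receptor Nr2f2 lost a rise (1.04 and 0.02). Sox2 was not called for the difference (0.45 ± 0.08 and 0.22 ± 0.10, difference -0.24 ± 0.13, adjusted p = 0.127), but was called without Ctrl+vehicle replicate 2 at d5 (-0.35, adjusted p = 0.0178). Markers of other cell types were few and low. The adipogenic list split into 4 positive and 2 negative differences among 6 tested (100% called, against 60.5% of all genes tested). Its member Lpl, a lipase, rested on 23 counts in vehicle and 1 in FGF2 libraries at d2.5, a vehicle over FGF2 ratio of 22.8 (95% counting interval 3.70 to 938).

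**Figure D5:**
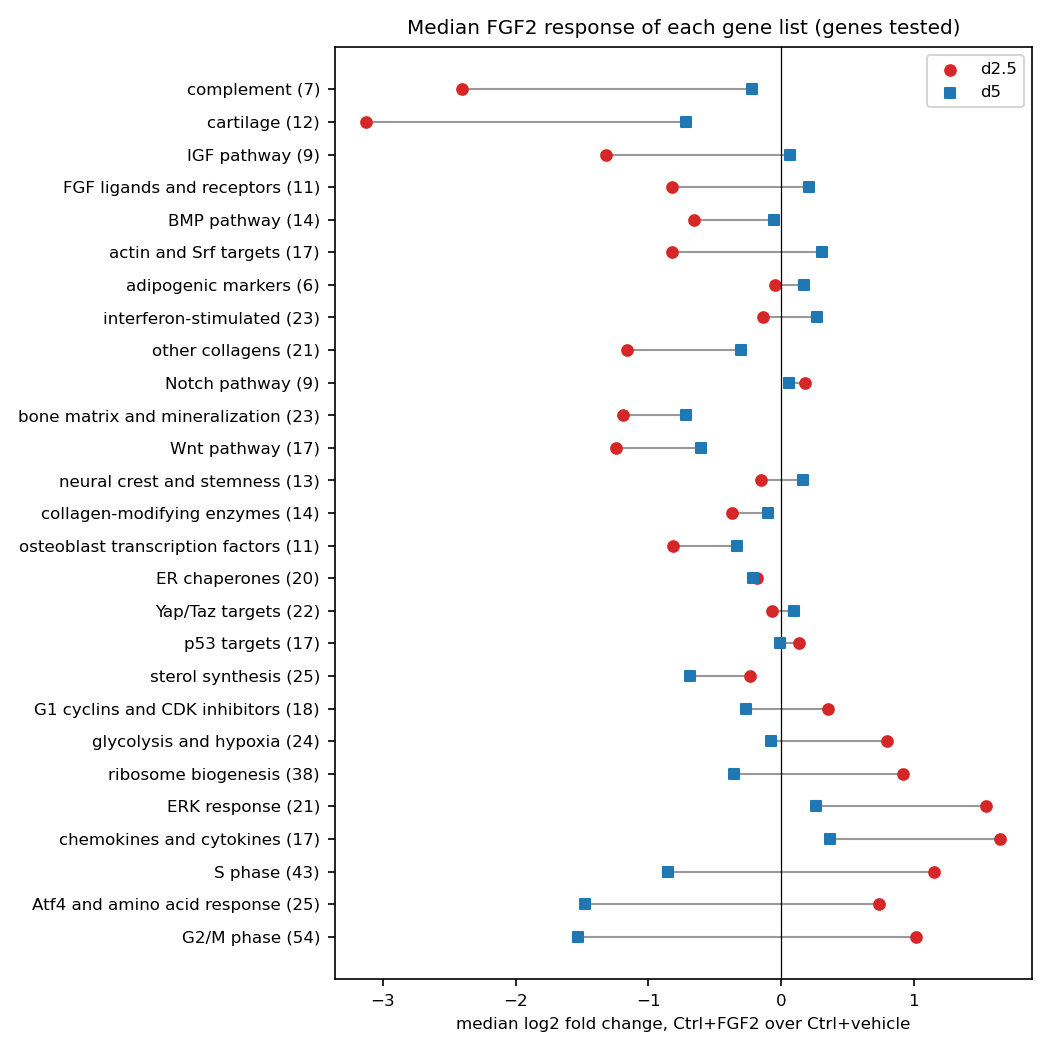
Median log2 fold change of Ctrl+FGF2 over Ctrl+vehicle at d2.5 and at d5 for each gene list, with the number of genes tested in parentheses and a vertical line at 0, ordered by the median difference. The S phase, G2 and mitosis, ribosome and Atf4 lists lie above 0 at d2.5 and below 0 at d5, and the actin list does the opposite.

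Beyond the lists, the genes with the largest differences in each class were also named. Among genes that were higher and then lower, Hhip, an antagonist of hedgehog ligands, stood at 0.137, 0.387 and 0.307 CPM with vehicle and 7.25, 7.69 and 7.77 CPM with FGF2 at d2.5 and at 0.702, 0.329 and 0.533 CPM with vehicle and 0.0915, 0.244 and 0 CPM with FGF2 at d5. Its fall at d5 rests on 17 counts over vehicle and 4 over FGF2 libraries (difference -6.76 ± 0.91, adjusted p = 1.29e-07). Galnt3 (mm10 chr2:66082766-66124994), a glycosyltransferase that protects Fgf23 from cleavage, stood at 1.79, 0.966 and 1.46 CPM with vehicle and 9.38, 9.89 and 7.97 CPM with FGF2 at d2.5 and at 9.23, 9.94 and 11 CPM with vehicle and 1.46, 1.95 and 1.34 CPM with FGF2 at d5. Groups were apart on both days and the log2 fold changes nearly mirrored each other (2.69 ± 0.21 and -2.65 ± 0.22, difference -5.34 ± 0.30, adjusted p = 3.61e-13). Dusp2, a nuclear ERK phosphatase, completed this set with Il1rl1 (3.77 ± 0.35 and -1.24 ± 0.43).

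Among genes that were lower and then higher, Agt, the angiotensin precursor, had 132 counts over vehicle and 1 over FGF2 libraries at d2.5, a vehicle over FGF2 ratio of 131 (95% counting interval 23.0 to 5198), and a log2 fold change of 1.24 ± 0.25 at d5 (difference 7.78 ± 1.99, adjusted p = 9.91e-09). The cartilage matrix protein Matn4 (-5.24 ± 0.82 and 1.87 ± 0.25) and the EGF repeat protein Megf6 (-6.37 ± 0.93 and 0.53 ± 0.09) joined Col9a2 in this set. Lost falls were led by Col2a1, followed by the synaptic scaffold Shank1 (-5.75 ± 0.60 and 0.21 ± 0.15), the connective tissue proteoglycan Prelp (-5.50 ± 0.19 and 0.06 ± 0.05) and the GABA-B receptor subunit Kctd12 (-5.59 ± 0.34 and -0.15 ± 0.06). Prelp went from 65.2 ± 1.98 to 1.43 ± 0.238 CPM at d2.5 and from 175 ± 12.7 to 182 ± 5.63 CPM at d5 (vehicle to FGF2), so its level at d5 did not separate the treatments.

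Lost rises were Arhgap6, a GTPase activating protein (3.70 ± 0.24 and 0.08 ± 0.15), Gch1, the first enzyme of tetrahydrobiopterin synthesis (3.19 ± 0.21 and -0.35 ± 0.36), Dusp4 and Dusp6.

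Among the genes named by size, responses that appeared at d5 were smaller than those that were lost. Ndrg2, a differentiation-associated gene, stood at 28.6, 22.4 and 26.3 CPM with vehicle and 26.5, 21 and 24.7 CPM with FGF2 at d2.5 and at 4.51, 7.15 and 4.26 CPM with vehicle and 29.3, 22.3 and 22.9 CPM with FGF2 at d5. Libraries overlapped at d2.5 and were apart at d5, where the vehicle level was low (difference 2.29 ± 0.22, adjusted p = 5.48e-09). Cyp26b1, the enzyme that degrades retinoic acid, showed the same pattern, at 53, 65 and 62.6 CPM with vehicle and 61.1, 54.9 and 58.7 CPM with FGF2 at d2.5 and at 5.82, 7.31 and 7.37 CPM with vehicle and 38.9, 23.3 and 29.2 CPM with FGF2 at d5 (difference 2.18 ± 0.21, adjusted p = 6.45e-09). For both genes the FGF2 level at d5 was closer to the d2.5 levels than the vehicle level was. The actin-associated Fam107a (-0.19 ± 0.20 and 2.13 ± 0.16) and the complement component C3 (-0.23 ± 0.22 and 1.89 ± 0.12) also appeared as rises.

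Falls that appeared at d5 were those of Mxd3, a Max-binding factor of S phase cells (0.22 ± 0.23 and -1.96 ± 0.44), Nkd2, a Wnt inhibitor (-0.41 ± 0.44 and -2.36 ± 0.18), Atf5, and Havcr2, an immune checkpoint receptor (-0.07 ± 0.13 and -1.77 ± 0.34). Nkd2 had only 35 counts over the vehicle and 26 over the FGF2 libraries at d2.5, so a fall there could have gone uncalled. Of the other genes that the study followed, a pair changed little between the days. Cdk4, the partner kinase of Ccnd1, went from 0.28 ± 0.03 to 0.06 ± 0.03 (difference -0.23 ± 0.05, adjusted p = 2.71e-04), and Gdpd5, a phosphodiesterase, had fold changes of 0.81 ± 0.11 and 0.49 ± 0.17 with a difference that was not called (-0.32 ± 0.21, adjusted p = 0.178).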

How the data were processed

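Poly(A) RNA of O9-1 cells was sequenced from libraries made with a SMARTER mRNA-Seq kit. Per the labels, the authors used FastQC, STAR, Picard and featureCounts with mm10, whose versions and roles are not given in the sources used here, and deposited raw gene counts per library in 3 columns. The last column was used as the counts, because 96.0% to 96.6% of stranded gene counts fell on it. Rows that name no gene (27.0% to 32.8% of all counts) were left out. Of 55335 gene identifiers, 54587 matched GENCODE M21 with their version and 567 without it.

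The 12 siCtrl libraries (11026929 to 14698525 gene counts) were fitted with edgeR 4.0.16 in R 4.3.3, with TMM factors, filterByExpr by group, 1 mean per group and the quasi-likelihood test. P-values were two-sided and Benjamini-Hochberg adjusted over the 14008 genes tested in each contrast, at a threshold of 0.05. The SE comes from the expected information of the fit times its quasi-likelihood variance, and is never below the Poisson one. Classes were counted from the calls of the 3 contrasts without a further test.

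The gene lists and the comparison were chosen with earlier results of these data known, so lists are described by counts and medians only. Named genes were, in each of 6 classes, the 4 with the largest difference with a log2 CPM averaging 1 or more over the libraries, groups that did not overlap on each called day, a symbol that is no clone or predicted name and, for lost and appeared responses, a log2 fold change under 0.5 on the other day; from each list up to 4 called members with the largest difference; and 17 genes that the study names. Further list members were chosen after their values were seen. Some listed genes are not reported here. Counting intervals (95%) are exact and, like the floor of 3 counts, cover counting error only. The procedure was tested on simulated data. Alternatives were RLE and upper-quartile factors, no or a stricter filter, all 18 libraries, DESeq2 1.42.0, stricter thresholds, a replicate term, each library left out in turn and, chosen after seeing the data, unstranded counts. No library was a copy of another, and columns of samples of another series numbered 0.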

Additional observations from a re-analysis of the deposited data

Results flagged for a closer look

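The effect of FGF2 differed between d2.5 and d5, by a test of the difference itself (edgeR quasi-likelihood, adjusted p under 0.05), for 8470 genes. The named genes meet the same test, and their differences (log2, d5 less d2.5) follow by class. Higher and then lower were Hhip (-6.76), Galnt3 (-5.34), Il1rl1 (-5.18) and Dusp2 (-5.00). Lower and then higher were Col9a2 (7.91), Agt (7.78), Matn4 (7.11) and Megf6 (6.90). A rise was lost for Arhgap6 (-3.62), Dusp4 (-3.55), Gch1 (-3.54) and Dusp6 (-3.31), and a fall for Col2a1 (9.0), Shank1 (5.95), Prelp (5.56) and Kctd12 (5.45). A rise appeared for Fam107a (2.32), Ndrg2 (2.29), Cyp26b1 (2.18) and C3 (2.12), and a fall for Mxd3 (-2.18), Nkd2 (-1.95), Atf5 (-1.72) and Havcr2 (-1.70). Day and batch cannot be told apart for any of them.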

How the results depend on the processing

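The count of genes called for the difference and that of each class stayed within 1.5 times under every alternative but a fold threshold. Of the called counts of the 27 lists, 13 of 540 negative and 10 of 540 positive ones moved further. Those of the BMP pathway (2 negative) became 4 with DESeq2 or all 18 libraries, the interferon-stimulated 10 positive ones 6 with DESeq2, and the 5 negative of the Wnt pathway and 10 of chemokines and cytokines 2 and 6 with at least 10 counts in every library. The others moved by 1 gene, among them sterol synthesis (2 positive, 1 without Ctrl+FGF2 d2.5 replicate 2 or d5 replicate 1), adipogenic markers (2 negative, 1 without Ctrl+vehicle d2.5 replicate 1 or replicate 3 of Ctrl+FGF2 on either day), the Atf4 list (1 positive, 0 without Ctrl+vehicle d2.5 replicate 2 or 3 or replicate 1 of Ctrl+FGF2 on either day), the IGF pathway (0 negative, 1 without Ctrl+vehicle d2.5 replicate 1) and cartilage (0 negative, 1 without Ctrl+FGF2 d5 replicate 2). Upper-quartile factors moved the median difference of all genes from 0.031 to 0.124 and turned the list medians of ER chaperones (-0.045 to 0.049), Yap/Taz targets (-0.053 to 0.040) and p53 targets (-0.059 to 0.034). The median of cartilage genes went from 2.09 to 3.18 with at least 10 counts in every library, and that of osteoblast transcription factors from 0.076 to 0.65 with all 18 libraries and to 0.45 without Ctrl+vehicle d5 replicate 2. Called genes numbered 8449 with RLE factors, 8522 with upper-quartile factors (59.7% positive, against 51.7%), 8408 with no filter, 7771 with at least 10 counts in every library, 8643 with all 18 libraries, 7676 with DESeq2, 8365 with unstranded counts and 8098 to 8422 with 1 library left out. Requiring a difference of at least 1 as well left 2691 genes, 1468 positive and 1223 negative, with 736 higher then lower, 658 lower then higher, 330 lost rises, 497 lost falls, 124 appeared rises and 48 appeared falls. The correlations of deviations between vehicle and FGF2 libraries of the same replicate number were 0.018, 0.050 and 0.006 at d2.5. At d5 they were 0.114, 0.116 and 0.014, and there each library correlated best with its own number. Whether the replicate numbers mark paired libraries was not tested. A replicate block within each day gave 8653 genes, 8410 of them shared, and called Ibsp (adjusted p = 0.0432).

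Over 147 named genes 136 kept direction and call in every setting. Of 2899 gene and setting values 28 lost and 7 gained the call and 10 changed sign. The sign changes were all of Bglap, whose difference of -0.02 was not called and became 0.073 with upper-quartile factors, 0.0034 with no filter and 0.037 with DESeq2, and ranged from -0.42 to 0.36 with 1 library left out. The cause was not tested. Depth limits genes under about 30 counts in a group, such as Bglap, Fgf18 and Lpl. Several large falls at d2.5 also rest on few counts over the FGF2 libraries: Matn4 (9), Csf1r (9), Megf6 (7), Shank1 (6), Dlx5 (5), Cxcl5 (5) and Rspo2 (4).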

Other observations

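Genes that mark other cell types were mostly too low to test, and the few that passed had differences of both signs. Pecam1, an endothelial adhesion molecule, had log2 fold changes of -1.52 ± 0.26 at d2.5 and 1.39 ± 0.41 at d5, and Csf1r, a myeloid receptor, of -2.54 ± 0.52 and -0.01 ± 0.32. Mbp, a myelin protein, went from -1.02 ± 0.30 to 0.80 ± 0.24. The summed group means of the 4 endothelial markers stayed between 0.654 and 3.49 CPM, with Cdh5 at 0 counts. Among adipogenic genes the transcription factors Cebpd (-0.17 ± 0.08 and 0.92 ± 0.08) and Klf15 (-0.34 ± 0.23 and 0.69 ± 0.10) appeared as rises at d5, while the fatty acid binding protein Fabp4 was higher and then lower (0.34 ± 0.08 and -0.70 ± 0.16).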
